A study of Homo sapiens with 24 samples.

Results

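The replication-dependent histone genes encode the bulk of the histones that package newly copied DNA. The 72 members described here were the protein-coding genes whose symbols start with HIST, a cluster number from 1 to 4, and the letter H followed by 1, 2A, 2B, 3 or 4, out of 58174 listed genes, of which 19799 were protein-coding. The rule itself uses symbols and no expression value, but the members were chosen with earlier results of these data known. By class there were 6 linker histone H1 genes and 17 H2A, 18 H2B, 16 H3 and 15 H4 genes. By cluster, 56 carried the number 1, 12 the number 2, 3 the number 3 and 1 the number 4. Total RNA depleted of ribosomal RNA was sequenced from A549, a lung cancer line, ES2, an ovarian cancer line, MV3, a melanoma line, and PANC1, a pancreatic cancer line. In each line 3 libraries came from cells given a control siRNA (siC) and 3 from cells given a pool of siRNAs against IGF2BP1 (siI1), an RNA-binding protein known to protect a set of mRNAs from decay, which made 24 libraries in 8 groups. A549, ES2 and MV3 were harvested 72 h after transfection and PANC1 after 96 h, so a difference between PANC1 and the other lines cannot be told apart from a difference in time. A knockdown by siRNA lowers an mRNA without removing it, and each line is a single established line of its tumour type.

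Core histones H2A, H2B, H3 and H4 form the octamer around which DNA is wound, and H1 binds the DNA that enters and leaves it. Cells make these proteins mainly during S phase, from many small gene copies without introns that lie together in clusters. Their mRNAs are the known exception among animal mRNAs in that most end not in a poly(A) tail but in a short conserved hairpin, which is bound by SLBP and cleaved with the help of the U7 snRNP. Some members, among them genes of the H2B class, are also known to give longer polyadenylated mRNAs outside S phase.

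The hairpin is the sequence that the members share, and it is shown because it carries the identity of these mRNAs. The pattern searched was 16 bases long, the stem letters GGCNC followed by TTTTNAG and then NGCC, where N is any base, read on the gene's strand only in the 150 bases after the stop codon. It was found in 67 of the 72 members and in 68 of 19607 protein-coding genes of GENCODE release 44, which is 0.347%. The other gene with these letters was H2AX, listed in the deposited tables as H2AFX. The match began 23 to 68 bases after the stop codon, with a median of 36. In the lines below the 16 matched bases are in capitals with 5 bases on either side, from hg38 and written 5′ to 3′ on the strand of the gene.
HIST1H1D (chr6:26234217-26234232, minus strand): taaacGGCTCTTTTCAGAGCCaccca
HIST2H2AA3 (chr1:149842223-149842238, minus strand): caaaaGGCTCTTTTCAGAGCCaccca
HIST1H2BC (chr6:26123472-26123487, minus strand): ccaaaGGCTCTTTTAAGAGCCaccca
HIST1H3B (chr6:26031597-26031612, minus strand): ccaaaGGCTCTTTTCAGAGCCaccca
HIST1H4C (chr6:26104317-26104332, plus strand): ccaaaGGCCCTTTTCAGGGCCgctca
HIST1H4K (chr6:27831178-27831193, minus strand): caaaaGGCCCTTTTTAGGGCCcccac

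The start of the stem set H4 apart from the other classes, which it did not separate from one another. All 14 H4 members with a match had the stem that starts GGCCC, 10 of them with the loop of HIST1H4C and 4 with the loop of HIST1H4K, and no H4 member had the stem of the other classes. The 53 matched members of H1, H2A, H2B and H3 had the stem that starts GGCTC. Of the 5 members without a match, 4 held a hairpin that differed from the commonest one of their class at 1 or 2 of the 16 bases, counted from 1 at the 5′ end, and these are shown because HIST1H3E is the member that stood apart in the knockdown below.
HIST1H3E (chr6:26225596-26225611, plus strand; T8C): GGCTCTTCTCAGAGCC
HIST1H4L (chr6:27873153-27873168, minus strand; T8C): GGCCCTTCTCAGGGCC
HIST1H2AK (chr6:27837885-27837900, minus strand; C3T): GGTTCTTTTCAGAGCC
HIST1H2BI (chr6:26273392-26273407, plus strand; T8C and C10A): GGCTCTTCTAAGAGCC

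Promoters set the classes apart as well. The RefSeq promoter table, 250 bases before to 50 after each start on GRCh38.p14, held 61 of the members, and each motif was searched on both strands except TATAAA, which was read along the gene. The box CCAAT was found in all 48 promoters of H1, H2A, H2B and H3 members that could be searched but in 3 of 13 H4 promoters (23.1%), against 39.7% of all 27305 promoters in the table. TATAAA was found in 60.7% of the members' promoters against 8.99% of all. The octamer ATTTGCAT, the site known for Oct-1 in H2B promoters, was found in 69.2% of H2B and 68.8% of H2A promoters, in no H1 or H4 promoter, and in 2.19% of all. The similar shares of H2A and H2B go with their layout: 14 pairs of members lay head to head with starts at most 500 bases apart, 12 of them an H2A with an H2B, so that both searches read the same stretch. The octamer is in capitals in 3 of the 9 H2B promoters that hold it, chosen because the levels of these genes are described below.
HIST1H2BK (chr6:27146888-27146913, minus strand): cttcaccttATTTGCATgagaggtcc
HIST2H2BE (chr1:149886712-149886737, minus strand): ggagccctaATTTGCATaaggtggtt
HIST2H2BF (chr1:149812403-149812428, minus strand): cgagtcttcATTTGCATacgggctct

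The values are FPKM, that is, reads per kilobase of listed gene length and per unit of sequencing depth after the authors' scaling. A549 libraries held 3105215 to 4553326 reads assigned to genes, ES2 libraries 6421764 to 8419467, MV3 libraries 15572492 to 20082702 and PANC1 libraries 6532175 to 8472851, so that 1 read on a gene of 400 nt was worth 0.550 to 0.777 FPKM in A549 but 0.123 to 0.166 in MV3. IGF2BP1 itself fell by 1.32 ± 0.05 (SE) on the log2 scale in A549, and ES2 showed a fall by 1.55 ± 0.07, MV3 by 1.52 ± 0.05 and PANC1 by 1.83 ± 0.06. The defining lung alveolar, ovarian and melanocyte markers were at or near 0 in A549, ES2 and MV3. The epithelial markers were mixed. In siC, KRT8 was at 512 FPKM in A549 and 717 in PANC1, KRT18 at 162 and 201, and KRT19 at 117 and 617. In the same order EPCAM was at only 1.17 and 3.59, CDH1 at 18.4 and 4.55, and KRT7 at 399 and 2.88. ES2 siC also had KRT7 at 103 FPKM and KRT18 at 44.4. The control library PANC1 siC 3 was low for the members themselves: 0.850% of its reads fell on them, against 1.10% in both others of its group. Over all genes siC 3 was not alone in differing. There the chi-square per gene was 4.70 between siC 1 and 3, 5.87 between siC 1 and 2 and 15.1 between siC 2 and 3. As siC 3 was picked by the members' own reads, leaving it out enlarges their fall by construction. Values without it are therefore no separate evidence of a fall. The total of members lower in PANC1 and the total lower in every line are given with and without it. The other PANC1 counts, by class, by gene list and against ES2, include it and were not repeated without it. In PANC1 the FPKM of all genes also summed to 526337 to 756438 in siC but 977547 to 1191710 in siI1, so that a scaling to equal sums, given as an alternative, moves every PANC1 value down.

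In control cells many copies of every core class were expressed at once. HIST1H3B, an H3 gene, was the highest member in A549 at 682 ± 26.2 FPKM (SD, n = 3) and in PANC1 at 1064 ± 160.0, and the next highest after HIST1H4K in ES2 and MV3. HIST1H4K, an H4 gene, reached 1834 ± 96.7 FPKM in ES2 and 1345 ± 71.3 in MV3. In PANC1 the 3 leading members, HIST1H3B, HIST1H1B at 1052 ± 178 and HIST1H3C at 1013 ± 156, did not differ beyond their spread. The 10 highest members of each line held 47.5% (A549), 52.6% (ES2), 50.8% (MV3) and 50.9% (PANC1) of the summed FPKM of all members. Of the 72 members, 40 had a control mean of at least 10 FPKM in all 4 lines and 9 lay under 1 FPKM in all 4. Among these low genes, named as background only, were HIST1H1T, HIST1H2BA and HIST3H3, which are known from the testis. Also among them were HIST1H3D, HIST1H2AD and HIST1H2AM, whose exons overlap another listed gene on the same strand, so their low values are uncertain. The tables were normalized line by line, so levels are set side by side across lines without a test.

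**Figure D1:**
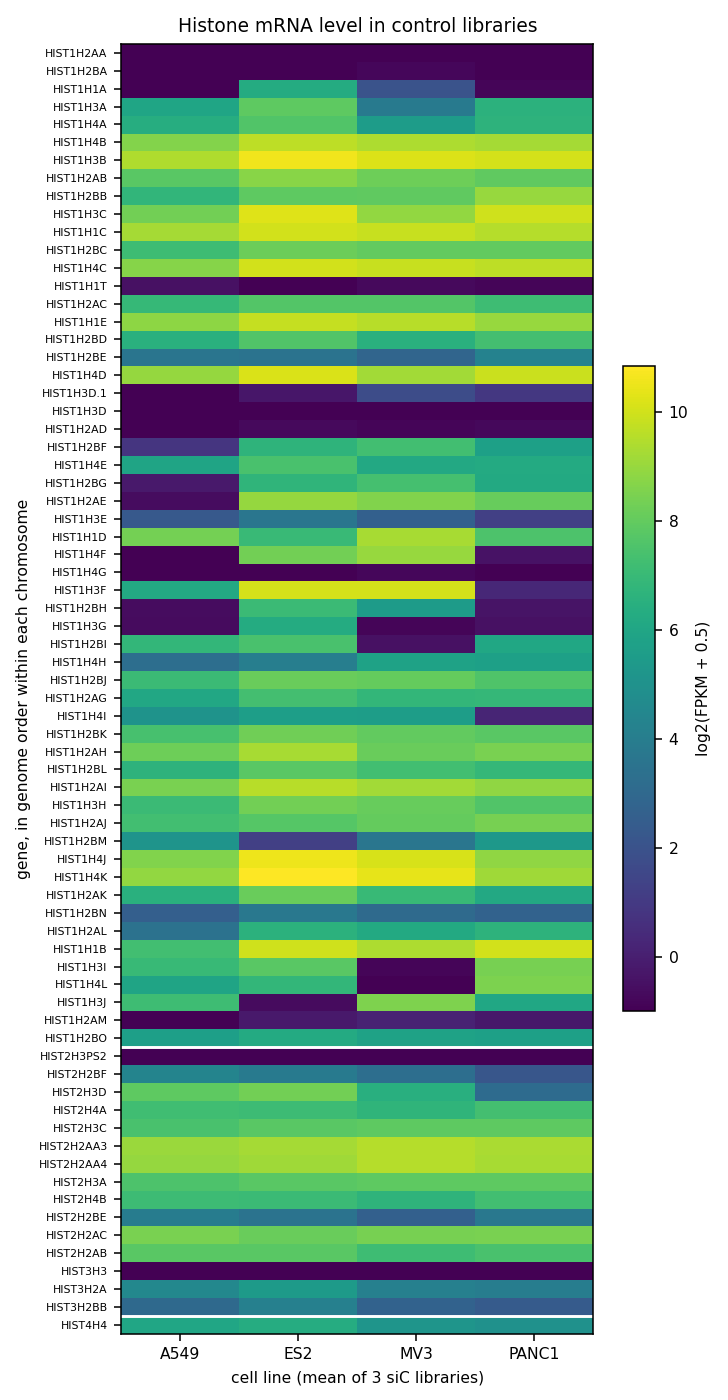
Mean level of each of the 72 histone genes in the 3 siC libraries of each line, as log2(FPKM + 0.5) on the colour scale, in genome order within chromosome 6 (top block), chromosome 1 (middle block) and chromosome 12 (the last row). Most rows are bright or dark in all 4 lines, and 12 rows have a dark cell under 1 FPKM in some lines beside a cell of 10 FPKM or more in another.

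A further 12 members, all in the HIST1 cluster, were under 1 FPKM in the control libraries of at least 1 line and at 10 FPKM or more in another. They were picked after their values were seen and lie outside the rule for named genes. HIST1H2AE and HIST1H2BG, an H2A and an H2B gene head to head with starts 233 bases apart, had 1 and 7 reads in all over the 3 control libraries of A549. In ES2, MV3 and PANC1 HIST1H2AE stood at 496, 382 and 270 FPKM and HIST1H2BG at 108, 162 and 72.8 FPKM. HIST1H3I and HIST1H4L, which are neighbours, had 1 read and 0 reads in the 3 MV3 controls, where a count of 0 allows up to 0.207 FPKM for HIST1H4L at 3 reads over the 3 libraries. The same pair stood at 344 and 365 FPKM in PANC1. HIST1H3F was at 1080 ± 78.8 FPKM in ES2 and 1063 ± 41.4 in MV3 but at 0.765 in PANC1, where the nearby HIST1H4F and HIST1H2BH were also under 1 FPKM. HIST1H3J was the reverse case for ES2, with 2 reads there and 376 FPKM in MV3. HIST1H1A, a linker histone gene, was at 77.8 FPKM in ES2 with no read in the A549 controls. In all, A549 and PANC1 each lacked 6 of these 12 genes, MV3 lacked 4 and ES2 1.

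Knockdown of IGF2BP1 was followed by lower summed histone mRNA in all 4 lines, and the mean sum of every class was lower. For H2B in PANC1, however, the sums of the siC and siI1 libraries overlapped. In A549 the members took 0.661% ± 0.036 (SD, n = 3) of all reads in siC and 0.438% ± 0.009 in siI1. The share was 1.35% ± 0.07 in ES2 siC and 0.729% ± 0.045 in ES2 siI1. MV3 went from 1.11% ± 0.03 to 0.655% ± 0.024, and PANC1 from 1.02% ± 0.14 to 0.638% ± 0.013. This share needs no scaling factor, and in no line did the siI1 libraries overlap with the siC libraries. In bulk RNA, fewer cells in S phase and less histone mRNA per cell cannot be told apart.

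Summed over the members, the level in the 3 A549 siC libraries was 10620, 9759 and 10808 FPKM against 6555, 7076 and 7167 in siI1, a loss of 33.3%. In ES2 the sums were 22306, 25141 and 22541 FPKM in siC and 13141, 11519 and 12600 in siI1, a loss of 46.8%. ES2 had both the highest control sum and the largest loss. MV3 had 19284, 18732 and 17646 FPKM in siC and 9873, 10632 and 11028 in siI1, a loss of 43.4%. PANC1 had 16897, 17872 and 12723 FPKM in siC and 11095, 11328 and 10832 in siI1, a loss of 30.0%. All 3 siI1 libraries were below all 3 siC libraries in each line, and in PANC1 the gap closed to siC 3.

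**Figure D2:**
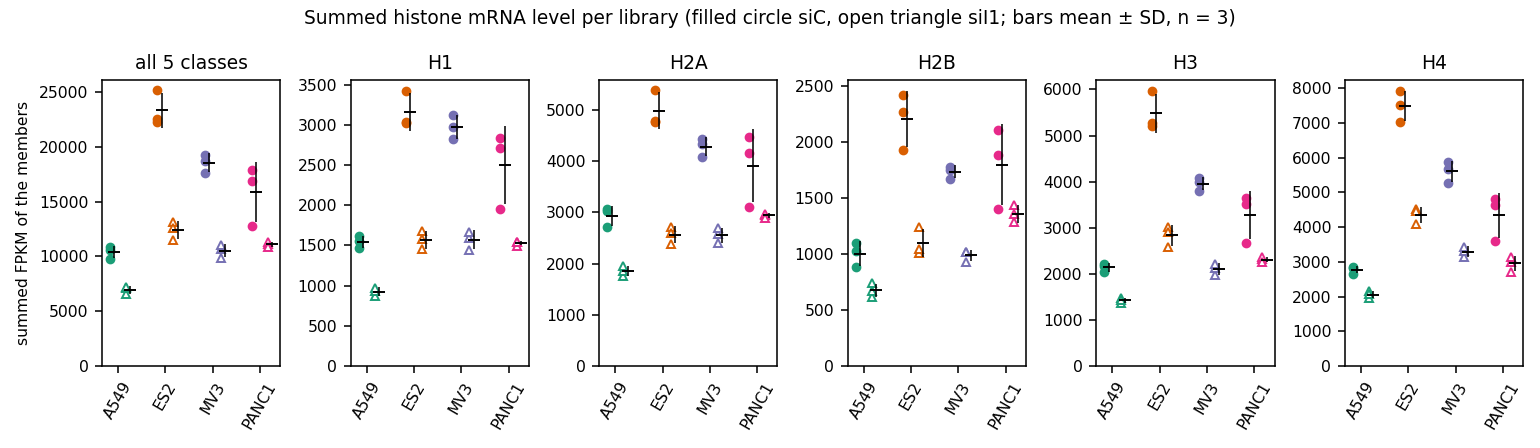
Summed FPKM of the 72 histone genes and of each class in every library, with filled circles for siC, open triangles for siI1 and bars for the mean ± SD of 3 libraries. The siI1 libraries lie below the siC libraries of their line in every panel except H2B in PANC1, where 1404 FPKM in a siC library falls within the siI1 range.

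Gene by gene, each line was tested on log2(FPKM + 0.5) over all genes whose mean reached 0.5 FPKM, and a gene was called at an adjusted p under 0.05. A549 had 43 of 56 tested members lower and 0 higher, against 7.83% of all tested genes lower and 5.93% higher. ES2 had 58 of 61 lower and 0 higher, against 13.0% and 10.5% of all genes. MV3 had 54 of 60 lower and 2 higher, against 19.5% and 16.3%. The 2 higher members were HIST1H3E and HIST1H1T. PANC1 had 27 of 58 lower and 0 higher, against 13.4% and 11.3%. All members are protein-coding, and of the tested protein-coding genes 11.4%, 17.9%, 26.8% and 17.3% were lower in A549, ES2, MV3 and PANC1. The members' median log2 fold change was -0.64, -0.97, -0.77 and -0.48 in A549, ES2, MV3 and PANC1, where the medians of all tested genes lay between -0.04 and 0.01. All 3 siI1 libraries lay below all 3 siC libraries for 83.9%, 96.7%, 90.0% and 56.9% of the tested members in the same order. The shares were 18.5%, 22.6%, 25.9% and 23.8% of all genes, and 25.6%, 29.9%, 34.7% and 29.9% of protein-coding genes. The PANC1 count rested on single libraries: 41 members were lower without siC 3, 5 without siC 1, 15 without siC 2, and 7 or 8 without any of the 3 siI1 libraries.

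Across the lines, 51 members were tested in all 4, 20 of them were lower in all 4 (39.2%) and 47 had a negative log2 fold change in all 4. With the 3 pairs that share at least 95% of their 76-base words counted once (HIST2H2AA3 and HIST2H2AA4, HIST2H3A and HIST2H3C, HIST2H4A and HIST2H4B), 18 of 48 were lower in all 4. The share of all 12816 genes with a lower call in each of the lines was 2.51%. Leaving out a single PANC1 library moved the 20 to between 4 and 31, where 31 came without siC 3 and held all 20. A further 26 members were lower in 3 lines. At least 1 line showed a fall for 59 of the 72. The shares of all genes lower in 3 lines or in at least 1 line were not counted. The totals of 26 and 59 therefore have no background to be read against. Of the 72, 8 members were tested in no line, with at most 5 reads in any library. The 20 were HIST1H1B, HIST1H1D and HIST1H1E of H1, HIST1H2AB, HIST1H2AC, HIST1H2AG, HIST1H2AI and HIST1H2AK of H2A, HIST1H2BC and HIST1H2BL of H2B, HIST1H3B, HIST1H3C, HIST1H3H, HIST2H3A and HIST2H3C of H3, and HIST1H4C, HIST1H4D, HIST1H4K, HIST2H4A and HIST2H4B of H4.

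**Figure D3:**
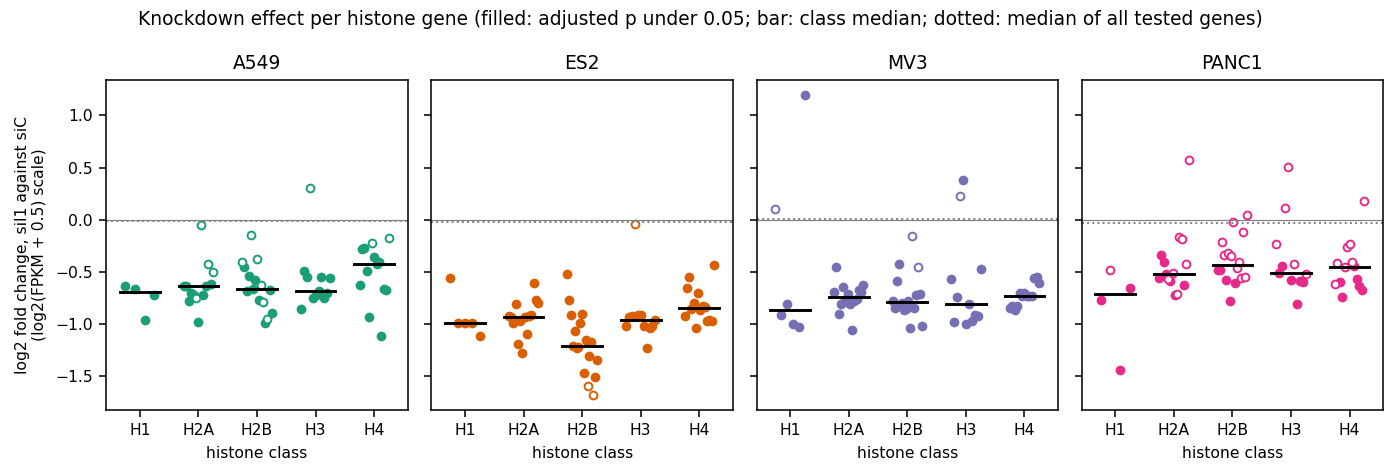
Log2 fold change, siI1 against siC, of each tested histone gene by class and line, filled where the adjusted p was under 0.05. The class medians (bars) lie between -0.43 and -1.21, below the dotted median of all tested genes in each panel, and the point above 1 in MV3 is HIST1H1T.

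Linker histones fell by 40.0% of their summed FPKM in A549, with 50.4% for ES2, 47.3% for MV3 and 38.92% for PANC1, the largest percentage of the 5 classes in A549 and PANC1. In ES2 H2B was close at 50.1%, and led at 53.1% against 51.3% without siC 3, and in MV3 H3 was close at 46.9%, with 46.03% against 45.9% without siC 1. HIST1H1D had the most negative fold change of the class in A549 and PANC1. Its siC libraries were at 335, 322 and 341 FPKM in A549 and its siI1 libraries at 157, 177 and 179. In PANC1 siC gave 208, 209 and 139 FPKM and siI1 gave 70.7, 62.7 and 68.1, so that even siC 3 lay well above. The log2 fold change of HIST1H1D was -0.96 ± 0.06 (SE), -0.99 ± 0.07, -1.0 ± 0.08 and -1.44 ± 0.16 in A549, ES2, MV3 and PANC1, with adjusted p of 8.6e-04, 5.1e-04, 3.3e-04 and 0.0027. The PANC1 value was the lowest of any member in that line. HIST1H1E fell by 0.72 ± 0.05, 1.11 ± 0.10, 1.03 ± 0.08 and 0.65 ± 0.14 in the same order. HIST1H1C, the most abundant linker gene in A549, had 784, 905 and 541 FPKM in PANC1 siC and 515, 514 and 536 in siI1. There siC 3 was only just above the highest siI1 library, and the adjusted p was 0.11, or 0.0075 without siC 3. HIST1H1A behaved differently by line: it was lower in ES2 at -0.56 ± 0.07, while in MV3 its 3.18, 3.84 and 3.71 FPKM in siC overlapped with 2.92, 4.42 and 4.48 in siI1. HIST1H1T, outside the rule for named genes, was called higher in MV3 at 1.19 ± 0.24 (adjusted p = 0.00996), but its level was only 0.122 FPKM in siC and 0.907 in siI1.

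Among the H2A genes, HIST2H2AA3 and HIST2H2AA4 were the most abundant in A549, MV3 and PANC1, and HIST1H2AI at 771 FPKM in ES2. Their transcripts share 99.8% to 100% of their 76-base words, so reads cannot be assigned between them and the pair counts as 1 measurement. HIST2H2AA3 had 584, 478 and 537 FPKM in A549 siC and 311, 330 and 327 in siI1, with a log2 fold change of -0.72 ± 0.08 (adjusted p = 0.0038). In PANC1 the siI1 libraries, at 565, 565 and 561 FPKM, lay inside the range of siC, at 688, 709 and 515, and the value was -0.16 ± 0.13 (adjusted p = 0.41). Without siC 3, HIST2H2AA3 was called lower in PANC1 at -0.31 ± 0.05 (adjusted p = 0.0171). HIST1H2AL had 10.6, 7.67 and 13.3 FPKM in A549 siC, which overlapped with 13.4, 6.71 and 10.8 in siI1, and in MV3 it was the lowest member at -1.06 ± 0.13, but the difference between lines did not pass the test (adjusted p = 0.0604). HIST1H2AK, whose hairpin carries C3T, was lower in all 4 lines, by 0.98 ± 0.15, 0.94 ± 0.10, 0.80 ± 0.04 and 0.72 ± 0.12. All 14 tested H2A members were lower in ES2 and in MV3, against 9 of 13 in A549 and 7 of 14 in PANC1.

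H2B was the class whose median differed most between lines. It ranged from -1.21 in ES2 to -0.43 in PANC1. H2B members were lower in 9 of 15, 15 of 17, 14 of 16 and 5 of 16 tested in A549, ES2, MV3 and PANC1. In PANC1 all siI1 libraries lay below all siC libraries for 31.3% of the tested H2B members. The share was 23.8% of all tested genes there and 29.9% of protein-coding ones. Only HIST1H2BC and HIST1H2BL were lower in all 4 lines, which is 2 of the 14 H2B members tested in every line. HIST1H2BC overlaps genes on the other strand. HIST1H2BL had 160.5, 149.7 and 154 FPKM in MV3 siC against 72.2, 78.5 and 74.4 in siI1, a change of -1.04 ± 0.04 (adjusted p = 8.0e-05). The levels of 3 named H2B genes varied among libraries of the same group. HIST2H2BE had 13.3, 16.4 and 3.35 FPKM in ES2 siC and 4.20, 1.64 and 2.21 in siI1, and its fold change of -1.68 was the most negative of all tested members in ES2 but not called (adjusted p = 0.096). Without the low siC 3 it became -2.34 (adjusted p = 0.0125). HIST2H2BF had 17.6, 16.3 and 6.94 FPKM in ES2 siC and HIST1H2BK 346, 372 and 217, again with siC 3 lowest in both. HIST1H2BK fell by 1.47 ± 0.28 in ES2, while in PANC1 its 198, 330 and 144 FPKM in siC overlapped with 154, 203 and 291 in siI1, at -0.02 ± 0.35. HIST1H2BO reached -0.99 ± 0.14 in A549, from 52.1, 42.9 and 55.7 FPKM to 23.7, 29.4 and 22.2. HIST1H2BB, the highest H2B gene in PANC1, fell there from 583, 545 and 434 FPKM to 367, 393 and 353 (adjusted p = 0.031).

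H3 genes were lower in 10, 10, 9 and 6 of 11 tested members in A549, ES2, MV3 and PANC1. HIST1H3B had 1506, 1680 and 1436 FPKM in ES2 siC and 873, 734 and 817 in siI1, and its log2 fold change was -0.49 ± 0.07, -0.93 ± 0.09, -0.98 ± 0.06 and -0.51 ± 0.12 in A549, ES2, MV3 and PANC1. HIST1H3C fell by 0.55 ± 0.05, 0.92 ± 0.06, 0.74 ± 0.05 and 0.45 ± 0.13. HIST2H3A and HIST2H3C, which share 99.1% to 100% of their words and are both listed at 1656 nt, gave nearly the same values, -0.75 and -0.70 in A549. HIST1H3J, seen in 3 lines, fell by 0.81 ± 0.12 in PANC1 from 70.3, 73.8 and 54.2 FPKM to 37.0, 37.1 and 37.2. Its exons overlap with those of HIST1H2AM on the same strand, as do those of HIST1H3D and HIST1H2AD with the listed HIST1H3D.1. How reads in such overlaps were assigned is not given in the sources used here. The values of HIST1H3J, HIST1H2AM, HIST1H3D, HIST1H2AD and HIST1H3D.1 are therefore uncertain.

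HIST1H3E was called lower in no line. It was expressed at a low level from a long listed transcript of 2679 nt. Its MV3 libraries gave 5.98, 5.22 and 5.62 FPKM in siC and 7.73, 7.35 and 7.17 in siI1, all siI1 libraries above all siC libraries, with a log2 fold change of 0.38 ± 0.06 (adjusted p = 0.0043). In PANC1 1.97, 1.97 and 1.60 FPKM in siC stood against 2.46, 2.61 and 3.53 in siI1, at 0.51 ± 0.15 (adjusted p = 0.056), and in A549 the value was 0.30 ± 0.17 (adjusted p = 0.30). In ES2, 10.6, 13.7 and 11.9 FPKM in siC overlapped with 12.2, 11.6 and 11.2 in siI1, at -0.04 ± 0.10. With libraries scaled to the same sum of FPKM the PANC1 value turned to -0.11, while the median of all genes moved to -0.68, so that relative to this median it stood at 0.58. HIST1H4L carries the same T8C in its hairpin, and it fell by 1.12 ± 0.14 in A549, by 0.97 ± 0.14 in ES2 and by 0.57 ± 0.13 in PANC1. A part of T8C in the response of either gene was not tested. HIST1H3D.1 had no recognisable hairpin in the 150 bases searched after its annotated stop codon. The matched hairpin of HIST1H3D (chr6:26196789-26196804) lies within the span of HIST1H3D.1 but outside those bases. HIST1H3D.1 was likewise low, with values made uncertain by the overlap. It did not pass the test where it was tested, at 0.23 ± 0.11 in MV3 and 0.11 ± 0.24 in PANC1.

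H4 genes fell least in 2 of the lines. Their summed FPKM was lower by 25.8% in A549 and by 42.0% in ES2, the smallest percentages among the classes there, by 41.2% in MV3 and by 31.9% in PANC1. HIST1H4C had 409, 424 and 416 FPKM in A549 siC and 327, 365 and 344 in siI1, at -0.27 ± 0.05 (adjusted p = 0.024). In MV3 it went from 967, 951 and 831 FPKM to 491, 498 and 514, at -0.87 ± 0.07 (adjusted p = 3.6e-04). HIST1H4K fell by 0.40 ± 0.07, 0.83 ± 0.06, 0.73 ± 0.07 and 0.45 ± 0.10 in the 4 lines, and it shares 92.0% of its words with HIST1H4J. HIST1H4D, with 513, 466 and 502 FPKM in A549 siC and 306, 383 and 366 in siI1, fell by 0.49 ± 0.09 there and by 0.85 ± 0.07, 0.83 ± 0.08 and 0.74 ± 0.14 in ES2, MV3 and PANC1.

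The makeup of the histone sum shifted with these unequal falls. H1 took 14.9% ± 0.2 (SD, n = 3) of the sum in A549 siC and 13.3% ± 0.1 in siI1, 13.5% ± 0.1 and 12.6% ± 0.1 in ES2, 16.04% ± 0.2 and 14.9% ± 0.3 in MV3, and 15.8% ± 0.4 and 13.8% ± 0.5 in PANC1. The siI1 libraries were below the siC libraries in all 4 lines. H4 took 26.7% ± 0.6 in A549 siC and 29.7% ± 0.8 in siI1, 32.1% ± 1.1 and 35.0% ± 0.6 in ES2, and 30.2% ± 0.3 and 31.4% ± 0.3 in MV3, with no overlap, but 27.5% ± 0.7 and 26.6% ± 1.4 in PANC1, where the groups overlapped. H2A went down in A549 and ES2 and up in MV3 and PANC1 without overlap. The share of H2B overlapped between the groups in every line. These shares depend on the listed gene lengths, which for 12 members exceed the GENCODE 44 exons by over 100 nt.

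**Figure D4:**
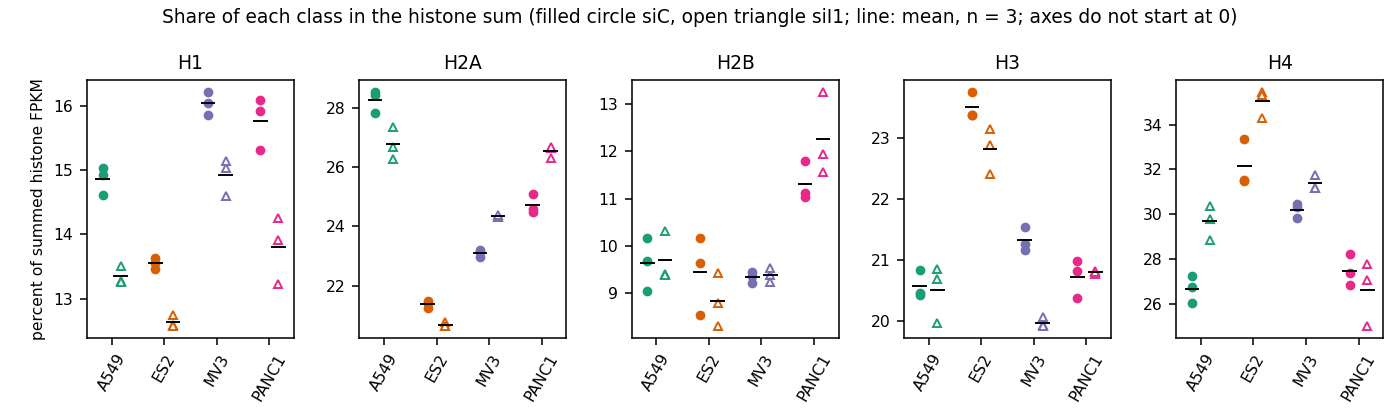
Percent of the summed histone FPKM taken by each class in every library, with filled circles for siC, open triangles for siI1 and lines for the mean of 3 libraries, on axes that do not start at 0. The H1 share is lower in siI1 in all 4 lines, and the H4 share is higher in A549, ES2 and MV3 and overlaps in PANC1.

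HIST1 and HIST2 members had similar medians. HIST1 members had medians of -0.63, -0.97, -0.79 and -0.48 in A549, ES2, MV3 and PANC1, and HIST2 members -0.67, -0.97, -0.69 and -0.54. The 2 tested HIST3 members had medians of -0.70, -1.07 and -0.83 in A549, ES2 and MV3, and the single HIST4 member was at -0.17 (not called), -0.43 and -0.60. All 3 were above 0 in PANC1, with values and their dependence on scaling given below. Members listed at under 1000 nt had medians of -0.63, -0.93, -0.77 and -0.51, and those listed at 1000 nt and more -0.67, -1.01, -0.71 and -0.37. The 11 tested members that share at least 50% of their 76-base words with another member had medians of -0.67, -0.97, -0.73 and -0.52, close to those of the other members.

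The size of the fall differed between lines for 17 of the 51 members tested in all 4, or 33.3%, against 45.0% of all 12816 genes, and for 16 with near-identical copies counted once. The count was 8 without the libraries numbered 1, 7 without those numbered 2 and 14 without those numbered 3. ES2 had the largest fall for 40 of the 51, MV3 for 8, A549 for 2 and PANC1 for 1, and PANC1 had the smallest fall or a rise for 34. Between ES2 and PANC1 27 members differed at an adjusted p under 0.05, 26 of them with the larger fall in ES2, against 32.7% of all genes in either direction, and the median difference was -0.45 on the log2 scale. Between ES2 and MV3 1 member differed, against 9.78% of all genes. Between A549 and ES2 8 of the 51 differed, against 21.7% of all genes, and A549 had the smaller fall for each of the 8.

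HIST3H2BB and HIST3H2A, an H2B and an H2A gene head to head on chromosome 1 with starts 230 bases apart, departed together. HIST3H2BB had 18.0, 17.9 and 15.9 FPKM in ES2 siC and 6.29, 6.75 and 6.46 in siI1, but 4.64, 5.91 and 4.03 in PANC1 siC and 4.83, 5.06 and 5.06 in siI1. Its log2 fold change was -0.89 ± 0.11, -1.34 ± 0.07 and -1.02 ± 0.11 in A549, ES2 and MV3 and 0.05 ± 0.13 in PANC1, the lowest adjusted p of all members in the test between lines (7.5e-06). HIST3H2A went from 37.1, 45.0 and 47.9 to 27.1, 23.7 and 22.9 FPKM in ES2, while in PANC1 its siI1 libraries, at 26.0, 20.8 and 22.4, lay above siC, at 17.2, 18.4 and 11.2. Its PANC1 value of 0.57 ± 0.19 did not pass the test (adjusted p = 0.076), and the difference between lines had an adjusted p of 0.00115. HIST4H4, the only member on chromosome 12, was at -0.17 ± 0.11, -0.43 ± 0.08, -0.60 ± 0.06 and 0.17 ± 0.09 (adjusted p = 6.4e-04 between lines), with PANC1 siI1 at 37.9, 35.1 and 34.3 FPKM above siC at 33.5, 33.8 and 27.9. With libraries scaled to the same sum of FPKM the PANC1 values became -0.64 for HIST3H2BB, -0.16 for HIST3H2A and -0.57 for HIST4H4, while the median of all genes moved from -0.04 to -0.68, so that relative to this median the 3 values stayed above 0 at 0.05, 0.52 and 0.11. Without siC 3 they were -0.07, 0.36 and 0.09, and HIST3H2BB was also at -0.10 without scaling factors, where the median of all genes was -0.18.

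HIST1H2AC was lower in all 4 lines yet unequally (adjusted p = 3.0e-04 between lines), from -0.93 ± 0.07 in ES2 to -0.34 ± 0.09 in PANC1. The leading H3 and H4 genes HIST1H3B and HIST1H4C differed as well (adjusted p = 0.0042 and 0.0037), and here A549 had the smallest falls, -0.49 and -0.27, with MV3 at -0.98 and -0.87. HIST1H1D, more negative in PANC1 than elsewhere, did not reach the threshold over the 4 lines (adjusted p = 0.055).

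**Figure D5:**
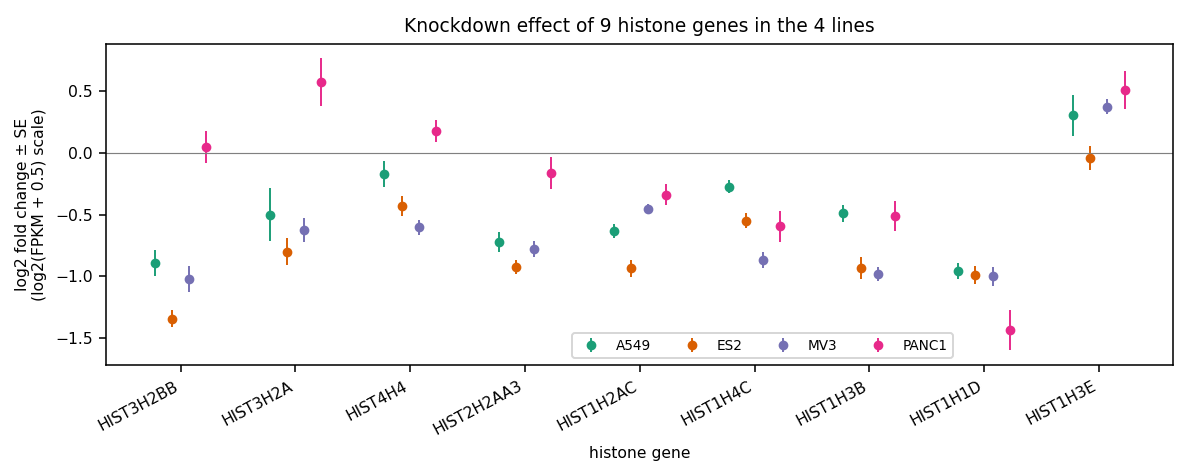
Log2 fold change ± SE, siI1 against siC, of 9 histone genes in the 4 lines. HIST3H2BB, HIST3H2A and HIST4H4 are below 0 in A549, ES2 and MV3 and between 0.05 and 0.57 in PANC1, where leaving out siC 3 puts HIST3H2BB at -0.07 and scaling to the same sum of FPKM puts all 3 below 0 but leaves them above the shifted median of all genes. HIST1H3E is at or above -0.04 in every line, or at -0.11 in PANC1 under that scaling.

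The factors that make, process and degrade histone mRNA are given here by their counts. Of 18 genes of 3' end processing and turnover, 2, 6, 7 and 4 were lower and 1, 1, 1 and 0 higher in A549, ES2, MV3 and PANC1, with medians from -0.22 to -0.07. SLBP, the hairpin binding protein, was lower only in MV3, by 0.39, and its values elsewhere were 0.09, -0.13 and 0.03 in A549, ES2 and PANC1. NPAT, the coactivator of histone gene transcription, was lower in PANC1 by 0.58, and LSM11 of the U7 snRNP was called in no line. CPSF2, a subunit of the cleavage complex, was lower in all 4 lines, by 1.33, 0.59, 0.80 and 1.25. Of 15 histone chaperones, 4, 6, 10 and 8 were lower (26.7%, 40%, 66.7% and 53.3%) and 2, 1, 1 and 0 higher in the same order. HAT1 and RBBP7 in A549 and ATRX in ES2 and MV3 were the higher ones, named after their values were seen. Those lower included CHAF1A of the assembly factor CAF-1 in all 4 lines (-0.56, -0.53, -0.78 and -0.54) and TONSL (-0.52, -0.59, -0.56 and -0.57).

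Histone variants listed as replication-independent were split. Of the 12 listed, 6 of 12 tested were lower in A549, 5 of 11 in ES2, 6 of 11 in MV3 and 3 of 11 in PANC1, and H1FX and H2AFV were lower in all 4. H2AFX, whose mRNA carries the hairpin, was lower by 0.49, 0.67 and 0.42 in A549, ES2 and MV3 and at -0.07 in PANC1. H3F3A, which encodes the replacement histone H3.3 and lies outside the rule for named genes, was at 0.04, 0.21, 0.21 and 0.02, called higher in MV3. Genes of DNA replication differed in number by line. Of 24 S phase genes 23 were lower in MV3 and 21 in PANC1, but 10 in A549 and 9 in ES2, the line with the largest histone loss, with medians of -0.57, -0.51, -0.13 and -0.12. Against these counts stand 7.83%, 13.0%, 19.5% and 13.4% of all tested genes lower in A549, ES2, MV3 and PANC1. Of tested protein-coding genes 11.4%, 17.9%, 26.8% and 17.3% were lower in the same order. MCM4 and MCM6 were called higher in ES2 (0.40 and 0.39) and RRM2 in PANC1 (0.31), named after their values were seen. E2F1, GINS1, MCM7 and TYMS were lower in all 4 lines. The part of S phase genes in the histone result was not tested.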

How the data were processed

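Total RNA depleted of ribosomal RNA was sequenced as 76 base read pairs from 3 biological replicates per group. The authors trimmed reads with Cutadapt 1.14, aligned them to hg38 with HISAT2 2.1.0 and SAMtools 1.5, counted genes with featureCounts 1.5.3 and deposited FPKM per gene and library, scaled within each line with edgeR 3.30.3. The strand and multi-mapping settings are not given in the sources used here. The authors' columns of log2 fold change, p-value and FDR per line were not used. FPKM times length came out as whole reads in 100% of values (tolerance 0.001), from which depth was recovered. Replicate libraries differed by more than sampling noise, with chi-square per gene from 1.54 to 15.1 in 24 pairs.

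Each line was fitted with limma 3.58.1 (R 4.3.3) on log2(FPKM + 0.5) for genes whose mean reached 0.5 FPKM, with Benjamini-Hochberg adjustment over all of them and a threshold of 0.05. Differences between lines came from a joint fit of the 24 libraries. A fold change on this scale understates that of low genes. The fit was tested on simulated data with 200 changed genes. Levels compared between genes rest on the listed gene lengths. SD and SE are taken between libraries, and the limits given for genes without reads cover counting error only.

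Members named are the 2 highest per class, the 3 most negative and 3 most positive fold changes per line with at least 10 reads on average, those called alike in all 4 lines or in opposite directions, and the 3 lowest adjusted p between lines. The members and lists were chosen with earlier results of these data known. Promoters came from RefSeq and positions from GENCODE release 44, where 67 of 72 members matched by gene ID and 5 by synonym. Alternatives were the pseudocount, the filter, the scaling, voom, a replicate block, 1 joint fit and leaving out each library.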

Additional observations from a re-analysis of the deposited data

Results flagged for a closer look

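The effect of the knockdown differed between the 4 lines for 12 of the named members, by the limma F test of the 3 differences in the joint fit of 24 libraries, where 45.0% of all genes also differed. In the H1 class this held for HIST1H1E (adjusted p = 0.0321). In the H2A class it held for HIST1H2AC (0.000296), for HIST2H2AA3 (0.00067) and its near-identical copy HIST2H2AA4 (0.0037), which count as 1 measurement, and for HIST3H2A (0.00115). In the H2B class it held for HIST1H2BK (0.031) and HIST3H2BB (7.48e-06). In the H3 class it held for HIST1H3B (0.00416) and HIST1H3C (0.01). In the H4 class it held for HIST1H4C (0.00374), HIST1H4K (0.00736) and HIST4H4 (0.000641). PANC1 was harvested at 96 h and the other lines at 72 h, so line and time cannot be told apart in these differences.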

How the results depend on the processing

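All alternatives kept the negative median of the members and of each class in every line. In PANC1, scaling to the same sum of FPKM gave 54 members lower and medians of -1.23 for all members, -1.47 for H1, -1.27 for H2A, -1.14 for H2B, -1.22 for H3 and -1.21 for H4, with the median of all genes at -0.68. Without a filter on low values PANC1 had 11 members lower. PANC1 had 2 members higher with at least 10 reads, with voom on recovered reads and with all 24 libraries in 1 fit. MV3 had 1 member higher with at least 10 reads and with all 24 libraries in 1 fit, which also gave an H1 median of -0.96 there. Members lower in all 4 lines, counted under alternatives chosen after seeing the data, were 8 without a filter, 40 with the same sum, and 31 with voom and with all 24 libraries in 1 fit. Causes of these shifts were not tested.

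Leaving out 1 library gave 34 to 39 members lower in A549, 54 to 58 in ES2, 53 to 55 in MV3 and 5 to 41 in PANC1. It gave 1 to 2 members higher in MV3, H4 medians of -0.49 to -0.40 in A549, H1 medians of -0.95 to -0.83 in MV3, and 4 to 31 members lower in all 4 lines. For the test between lines, all libraries of 1 replicate number were left out at once, a library from every group. Members differing between lines were then 7 to 14, with 8 without replicate 1 and 7 without replicate 2. These counts thus do not show the effect of a single library. The deviations of same-numbered siC and siI1 libraries correlated at -0.262 to 0.165. With 3 libraries per group these values cannot decide whether same-numbered libraries shared a batch. The replicate block gave 32, 56, 55 and 28 members lower in A549, ES2, MV3 and PANC1, 15 in all 4 lines, and 17 differing between lines. Of 2162 alternative values of named members, 1974 kept direction and side of the threshold, 129 lost the call, 42 gained it and 17 changed sign, each from a value that was not called. With the same sum these were in PANC1 HIST3H2BB (-0.64), HIST4H4 (-0.57), HIST1H3D.1 (-0.45), HIST3H2A (-0.16) and HIST1H3E (-0.11), and in ES2 HIST1H3E (0.027). Without scaling factors they were HIST3H2BB (-0.10) and HIST1H3D.1 (-0.011) in PANC1. Leaving out single libraries gave ranges across 0 for HIST1H2AL in A549 (-0.26 to 0.22), HIST1H3E in ES2 (-0.12 to 0.048), and in PANC1 HIST1H2BK (-0.29 to 0.30), HIST2H2BE (-0.47 to 0.33), HIST1H3D.1 (-0.090 to 0.34) and HIST3H2BB (-0.067 to 0.18). Depth limits the members with few reads, most of all in A549.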
